A study of Mus musculus with 10 samples.

Results

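Retinoic acid synthesis and breakdown genes were examined in testes of postnatal day 4 (P4) mice in which the RNA exosome ribonuclease DIS3 was removed from germ cells. The genes are 9 of the 54232 in the count table, chosen by their symbols for their roles in making, storing, binding or degrading retinoic acid, and all 9 were counted deeply enough to be tested. RNA-seq was compared between 5 control and 5 *Dis3* cKO libraries, each made from both testes of 1 mouse. The floxed *Dis3* allele was made in zygotes of B6D2F1 matings, and the methods name no strain for the mice of the libraries. The control libraries are labelled *Dis3* WT and came from littermates. In the *Dis3* cKO mice a *Ddx4-Cre* transgene, active in germ cells, deletes exons 4 to 6 of the floxed *Dis3* allele opposite a null allele, so that the somatic cells of the testis keep 1 intact copy. Whether the controls carried the transgene is not given in the sources used here.

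Retinoic acid is made from vitamin A in 2 oxidation steps. Retinol is first oxidised reversibly to retinaldehyde by RDH10, with DHRS3 working in the opposite direction, and retinaldehyde is then oxidised irreversibly to retinoic acid by the ALDH1A enzymes. LRAT stores retinol as retinyl ester, CRABP1 binds retinoic acid in the cytoplasm and CYP26 enzymes degrade it. In the testis retinoic acid drives spermatogonia to differentiate and to express *Stra8*. Both somatic and germ cells take part in the pathway, with Sertoli cells as a main early source.

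*Dis3* RNA of the whole testis was first examined in each library. *Dis3* fell from 4596 ± 491 normalized counts in control to 1494 ± 167 in *Dis3* cKO (SD, n = 5 each, log2 fold change -1.62 ± 0.09 SE), where a normalized count is a read count scaled to a common library size. Deletion in germ cells and the null allele of somatic cells cannot be told apart in this fall. The libraries held 28538849 to 41104912 reads in genes. In every library each listed marker of Sertoli, germ, Leydig, myoid, stromal, endothelial, macrophage and mesothelial cells was detected. The summed germ cell markers ranged from 20625 to 25425 normalized counts in control and from 13599 to 18584 in *Dis3* cKO. Of the 10, *Dazl*, *Mael*, *Tex101*, *Tdrd5* and *Sohlh1* fell at an adjusted p under 0.05 (edgeR). *Ddx4*, *Dnd1*, *Sall4*, *Zbtb16* and *Lin28a* were not called. Of all genes tested, 3.48% were called lower. Replicates 1 to 3 and replicates 4 and 5 formed separate sets in both genotypes, a split named neither by the labels nor by the methods. Among the marker lists it was largest in the mesothelial one, and values are therefore given for each set where they differ.

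Of the 9 genes, *Crabp1* fell in *Dis3* cKO testes and none rose at an adjusted p under 0.05 (edgeR). Among all 20043 genes tested, 4.42% were called higher and 3.48% lower, against which a count of 1 says nothing about the 9 as a group. At an unadjusted p under 0.05, *Cyp26b1* was also higher and no gene other than *Crabp1* was lower. Of all 20043 genes, 2361 were higher and 2432 lower at that threshold. DESeq2, which called 6.72% of genes higher and 4.83% lower, called only *Crabp1* among the 9, again as lower. The log2 fold changes of the 9 had a median of -0.03, against -0.01 over all genes tested. *Crabp1* was also the only member whose groups did not overlap, a pattern that 4.31% of all tested genes showed in the lower and 4.59% in the higher direction. In bulk RNA, fewer cells of a type and less RNA per cell cannot be told apart.

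**Figure D1:**
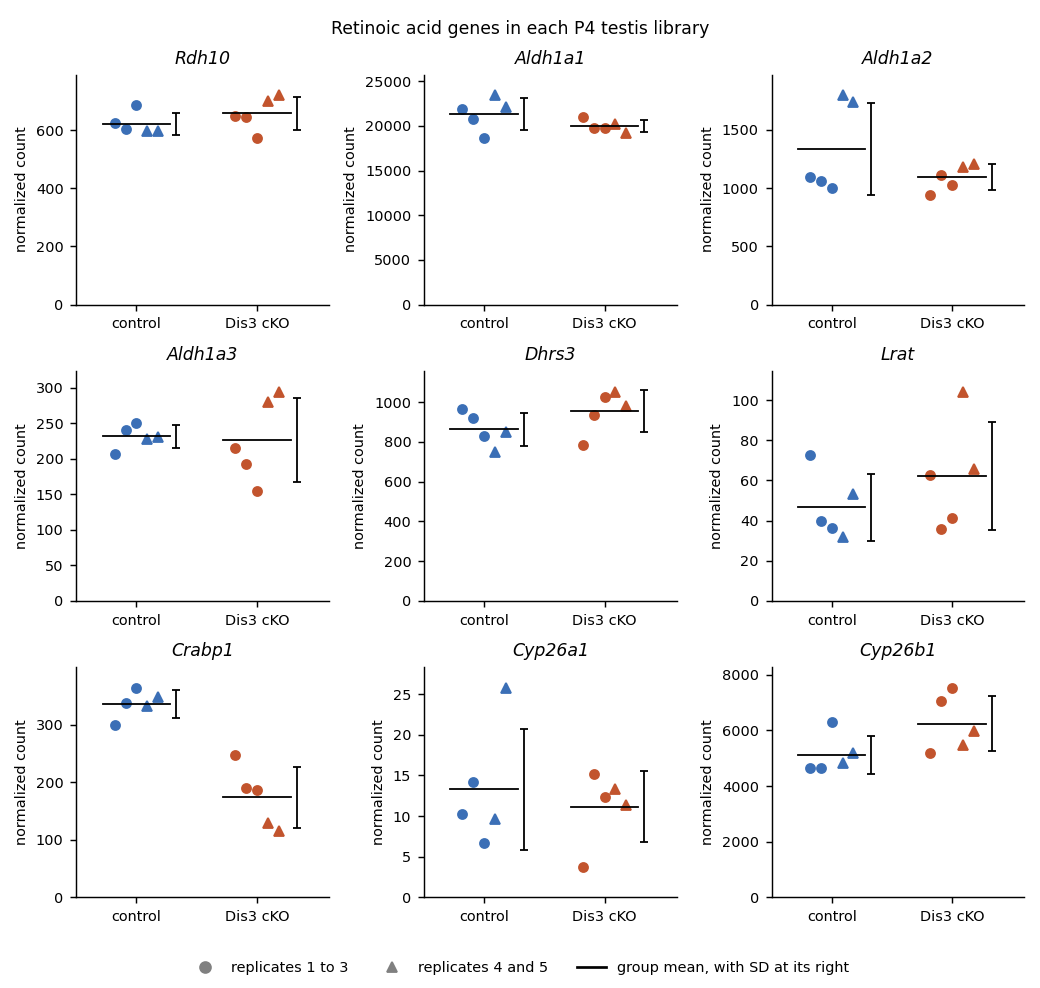
Normalized counts (y axes, from 0) of the 9 genes in each library, with control in blue and *Dis3* cKO in orange, replicates 1 to 3 as circles and the other replicates as triangles. Lines mark the group mean and bars its SD (n = 5). Only the *Crabp1* groups are apart, and the 2 high control libraries of *Aldh1a2* are replicates 4 and 5.

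*Crabp1* (ENSMUSG00000032291.8, GRCm38 chr9:54764748-54773110, plus strand) encodes cellular retinoic acid binding protein 1, which holds retinoic acid in the cytoplasm and is known from gonocytes and spermatogonia. The 250 bases before its annotated start are shown because the gene carried the only call and because the region counted for antisense RNA ends here. They were taken from RefSeq, GRCm38.p6, chr9:54764498-54764747, plus strand, and capitals mark GGGCGG, the GC box, on either strand.
Crabp1: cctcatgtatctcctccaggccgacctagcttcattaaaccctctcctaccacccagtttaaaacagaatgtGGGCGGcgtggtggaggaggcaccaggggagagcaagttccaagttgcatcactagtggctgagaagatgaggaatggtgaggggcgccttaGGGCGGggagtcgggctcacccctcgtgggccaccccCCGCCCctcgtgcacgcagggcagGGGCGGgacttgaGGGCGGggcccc
The box occurred 5 times. It was present at least once in 32.7% of the 250-base windows of all 32851 RefSeq promoters, and 1.93% held 5 or more. The window held 12 CpG dinucleotides, against a median of 6 over all promoters.

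In control libraries 1 to 5, *Crabp1* had 299, 337, 364, 334 and 349 normalized counts. In *Dis3* cKO libraries 1 to 5 it had 248, 191, 187, 128 and 116. Every *Dis3* cKO library was below every control library, and replicates 4 and 5 were the lowest. The group means were 337 ± 24.0 and 174 ± 53.5 (SD, n = 5 each), a fold of 0.516 with a 95% interval of 0.396 to 0.673 (log2 fold change -0.95 ± 0.18 SE, adjusted p = 0.00658). The exact permutation test of the means gave p = 0.00794, the smallest that 5 against 5 libraries can give. Spread among replicates was wider in *Dis3* cKO, with a coefficient of variation of 30.7% against 7.12% in control.

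*Crabp1* fell in both sets of replicates. The log2 fold change was -0.68 in replicates 1 to 3 (adjusted p = 0.0147) and -1.48 in replicates 4 and 5 (adjusted p = 6.23e-06). The difference between the sets did not pass (adjusted p of the interaction = 0.0567). In *Dis3* cKO the germ cell marker sum was 18113 to 18584 in replicates 1 to 3 and 13599 to 14593 in replicates 4 and 5. Among the controls it did not follow *Crabp1*, since replicate 3 had the lowest sum (20625) and the highest *Crabp1* count (364). In the pooled fit all 10 germ cell markers had a negative fold change, with a median of -0.67 on the log2 scale. In replicates 1 to 3 alone *Ddx4* and *Sall4* were at 0.16 and 0.05. The other germ cell markers were negative there, and the median of the list was -0.51. The part of germ cell number in the lower *Crabp1* count was not tested.

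**Figure D2:**
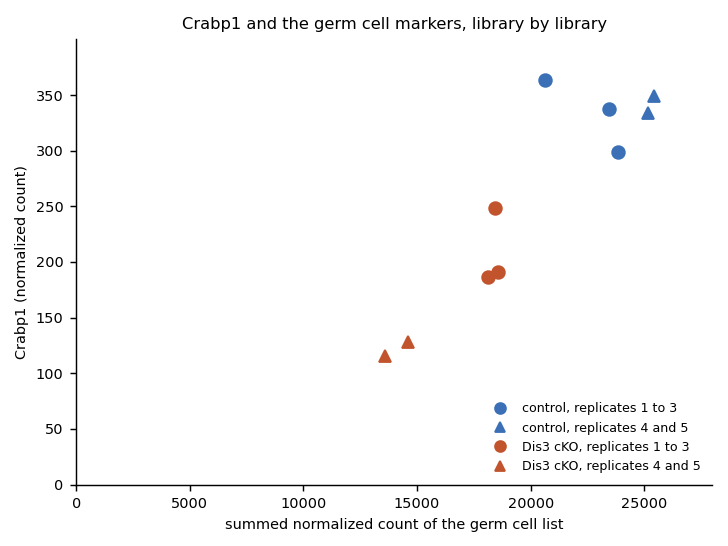
*Crabp1* normalized counts (y axis) against the summed normalized counts of 10 germ cell markers (x axis), 1 point per library and both axes from 0. The 5 *Dis3* cKO libraries lie below the control libraries on both axes, and *Dis3* cKO replicates 4 and 5 are lowest on both.

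The 2 genes with profiles most like *Crabp1* over the 10 libraries, by mean absolute difference of centred log2 CPM among 14751 genes, were *Fam90a1b* at 0.107 and *Adad1* at 0.132. The spread of *Crabp1* about its own mean was 0.511 on the same scale. *Adad1*, which encodes an RNA-binding protein of testis germ cells, fell by 0.78 on the log2 scale (adjusted p = 0.00619), and *Fam90a1b* fell by 0.83 (adjusted p = 0.00874).

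The paralog *Crabp2* was a minor member in both groups. *Crabp1* made up 96.5% ± 2.19 of the summed *Crabp1* and *Crabp2* level per exon length in control and 92.8% ± 3.95 in *Dis3* cKO (SD, n = 5 each). *Crabp2* itself had a mean of 20.3 normalized counts in control and 19.5 in *Dis3* cKO (log2 fold change -0.06 ± 0.47 SE, adjusted p = 0.959). Its direction changed with the libraries used.

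Synthesis begins with *Rdh10* (ENSMUSG00000025921.7, chr1:16105774-16133734), the retinol dehydrogenase of the first step. It had 625, 602, 685, 596 and 596 normalized counts in control and 648, 647, 572, 699 and 719 in *Dis3* cKO. The ranges overlapped, and the fold was 1.06 with a 95% interval of 0.932 to 1.20 (adjusted p = 0.620). Replicates 4 and 5 gave a log2 fold change of 0.26 and replicates 1 to 3 one of -0.04, and neither passed. *Dhrs3* (ENSMUSG00000066026.14, chr4:144892827-144928209), which returns retinaldehyde to retinol, had 966, 922, 830, 750 and 849 in control and 786, 935, 1028, 1052 and 982 in *Dis3* cKO. Its fold was 1.11 with an interval of 0.961 to 1.28 (adjusted p = 0.381). In replicates 4 and 5 alone it was higher in *Dis3* cKO, by 0.35 on the log2 scale (adjusted p = 0.0187), whereas replicates 1 to 3 gave 0.02. The difference between the sets did not pass for *Dhrs3* (adjusted p = 0.310).

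*Aldh1a1* (ENSMUSG00000053279.7, chr19:20492715-20643462) is the retinaldehyde dehydrogenase known from Sertoli cells. It was the most abundant of the 9 genes per exon length, at 125 ± 10.5 CPM (counts scaled to library size) per kilobase in control and 117 ± 4.05 in *Dis3* cKO (SD, n = 5 each). Control libraries had 21845, 20754, 18628, 23410 and 22126 normalized counts, and *Dis3* cKO libraries had 21022, 19769, 19776, 20228 and 19150. All *Dis3* cKO libraries were inside the control range. The fold was 0.936 with an interval of 0.846 to 1.04 (adjusted p = 0.442), so that a change of the size of *Crabp1* lies outside the interval. In replicates 4 and 5 alone *Aldh1a1* was lower by -0.20 on the log2 scale (adjusted p = 0.0116), against -0.02 in replicates 1 to 3, and the difference between the sets did not pass (adjusted p = 0.376). Of the 50-base windows of its transcripts, 1.75% also occur in other genes, mostly in its neighbour in sequence *Aldh1a7*.

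*Aldh1a2* (ENSMUSG00000013584.5, chr9:71215789-71296243) encodes the second retinaldehyde dehydrogenase, which makes most retinoic acid in the embryo and is also known from mesothelium. It had 1093, 1060 and 1000 normalized counts in control replicates 1 to 3 and 1796 and 1736 in control replicates 4 and 5. *Dis3* cKO replicates 1 to 3 had 944, 1111 and 1025, and replicates 4 and 5 had 1180 and 1211. The 2 control libraries of replicates 4 and 5 stood above all other libraries. Pooled, the fold was 0.819 with an interval of 0.645 to 1.04 (adjusted p = 0.299).

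The sets of replicates gave different answers for *Aldh1a2*. In replicates 1 to 3 the log2 fold change was -0.03 (adjusted p = 0.866), and in replicates 4 and 5 it was -0.56 (adjusted p = 7.24e-05). The difference between the sets passed (adjusted p of the interaction = 0.0169), which it did for none of the other 8 genes and for 4.58% of all genes tested. Between the sets themselves *Aldh1a2* was higher in replicates 4 and 5 by 0.49 on the log2 scale (adjusted p = 0.0025), again alone among the 9, against 17.1% of all genes.

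The mesothelial markers changed in the direction of *Aldh1a2* in replicates 4 and 5 but not in replicates 1 to 3. In replicates 4 and 5 their median log2 fold change was -0.84, against -0.56 for *Aldh1a2*. In replicates 1 to 3 it was 0.62, against -0.03. The summed level of the mesothelial markers was 331 to 367 normalized counts in control replicates 1 to 3 and 3399 to 3449 in control replicates 4 and 5. In *Dis3* cKO it was 485 to 625 in replicates 1 to 3 and 1964 to 1995 in replicates 4 and 5. All 6 listed markers (*Upk3b*, *Msln*, *Lrrn4*, *Upk1b*, *Muc16* and *Krt19*) were detected in every library. Other lists also differed between the sets, and in replicates 4 and 5 the stromal sum was 148030 to 148752 in control and 312579 to 320245 in *Dis3* cKO. The part of mesothelial or stromal tissue in the *Aldh1a2* difference was not tested.

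**Figure D3:**
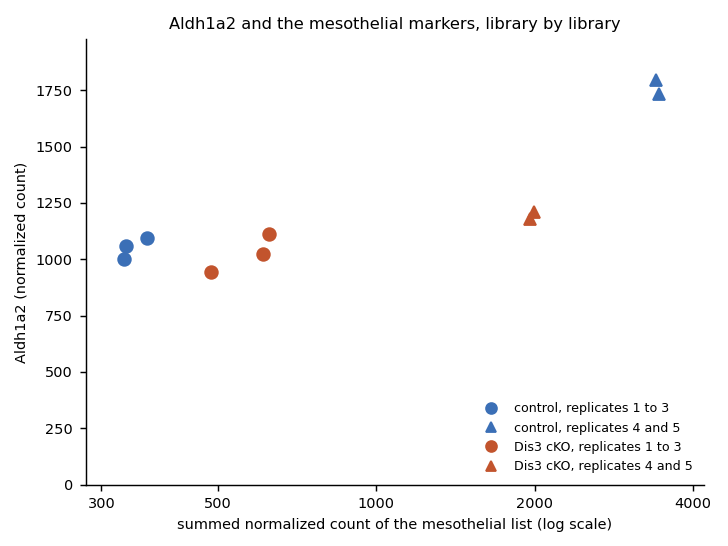
*Aldh1a2* normalized counts (y axis, from 0) against the summed normalized counts of 6 mesothelial markers (x axis, log scale), 1 point per library. Control replicates 4 and 5 are highest on both axes, *Dis3* cKO replicates 4 and 5 come next, and replicates 1 to 3 of both genotypes lie at 625 or less on the x axis.

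*Aldh1a3* (ENSMUSG00000015134.15, chr7:66390890-66427517), the third enzyme of this step, had 207, 241, 251, 228 and 232 normalized counts in control and 215, 193, 154, 280 and 294 in *Dis3* cKO. The *Dis3* cKO libraries lay on both sides of the control range, with replicates 4 and 5 above it and replicates 2 and 3 below it. The fold was 0.980 with an interval of 0.769 to 1.25 (adjusted p = 0.940). Replicates 1 to 3 gave a log2 fold change of -0.32 and replicates 4 and 5 one of 0.33, and neither passed, nor did their difference (adjusted p = 0.142).

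The 3 dehydrogenases of the second step kept their order in both groups. Of their summed level per exon length, *Aldh1a1* took 87.2% ± 2.30 in control and 88.4% ± 1.38 in *Dis3* cKO, *Aldh1a2* 11.7% ± 2.38 and 10.6% ± 1.17, and *Aldh1a3* 1.02% ± 0.165 and 1.07% ± 0.280 (SD, n = 5 each). The shares of *Aldh1a2* were highest in control replicates 4 and 5, at 14.2% and 14.5%.

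*Lrat* (ENSMUSG00000028003.6, chr3:82892579-82903973) esterifies retinol for storage. It was counted at low depth, with 532 reads in all 10 libraries together. Control libraries had 72.7, 39.6, 36.1, 31.6 and 53.3 normalized counts and *Dis3* cKO libraries 63.0, 36.1, 41.4, 104 and 65.7. The groups overlapped, with *Dis3* cKO replicate 4 highest, and the fold was 1.33 with an interval of 0.834 to 2.11 (adjusted p = 0.476). At this depth neither a small fall nor a rise to 2.11-fold could be told from no change. The log2 fold change was -0.09 in replicates 1 to 3 and 1.004 in replicates 4 and 5 (adjusted p = 0.0538), so the sign turned and neither set passed.

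Of the summed RNA level of *Cyp26a1* and *Cyp26b1* per exon length, *Cyp26b1* made up 99.2% ± 0.435 in control and 99.5% ± 0.197 in *Dis3* cKO (SD, n = 5 each). The related *Cyp26c1*, with means of 7.82 and 10.7 normalized counts, was too low to be tested and is not in this sum. *Cyp26b1* (ENSMUSG00000063415.12, chr6:84571414-84593908) encodes the hydroxylase that shields fetal male germ cells from retinoic acid. It had 4657, 4658, 6299, 4826 and 5192 normalized counts in control and 5203, 7053, 7518, 5480 and 5991 in *Dis3* cKO. All 5 *Dis3* cKO libraries exceeded 4 of the 5 control libraries, and control replicate 3 was the exception. The fold was 1.22 with an interval of 1.03 to 1.44 (log2 fold change 0.29 ± 0.11 SE, adjusted p = 0.134 by edgeR and 0.0794 by DESeq2).

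The *Cyp26b1* result depended on that library. Without control replicate 3 the log2 fold change was 0.38 (adjusted p = 0.0375), and the groups no longer overlapped. That setting called 5.75% of all genes higher, and *Cyp26b1* passed in 1 of the 10 fits that left out 1 library. Replicates 1 to 3 gave 0.34 (adjusted p = 0.168) and replicates 4 and 5 gave 0.20 (adjusted p = 0.0322). With the set of replicates as a term *Cyp26b1* did not pass (adjusted p = 0.0694). With the replicate number as a block it did (adjusted p = 0.0211). The profile most like it was that of *Gcn1*, at a mean absolute difference of 0.034 against a spread of 0.202 for *Cyp26b1* itself.

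*Cyp26a1* (ENSMUSG00000024987.5, chr19:37697808-37701528) is the CYP26 gene best known for its induction by retinoic acid, through response elements before its start. The 250 bases before the start are shown with the element in capitals, from RefSeq, GRCm38.p6, chr19:37697558-37697807, plus strand.
Cyp26a1: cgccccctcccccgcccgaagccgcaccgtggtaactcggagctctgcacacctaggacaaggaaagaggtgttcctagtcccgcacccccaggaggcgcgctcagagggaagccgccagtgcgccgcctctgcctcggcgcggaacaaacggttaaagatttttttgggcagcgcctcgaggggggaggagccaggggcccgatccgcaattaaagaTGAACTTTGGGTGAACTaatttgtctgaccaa
Retinoic acid response elements were searched as 2 half-sites in the same direction, AGGTCA, its variant AGTTCA, its variant GGGTCA or its variant GGTTCA, spaced by 1, 2 or 5 bases, on both strands and from 250 bases before to 50 bases after the start. Of the 9 genes, 7 had a RefSeq promoter, in 10 windows, and *Cyp26a1* was the only one with a match, at a spacing of 5. Matches spaced by 1 and 2 bases occurred in 0.222% and 0.268% of all 32851 promoters, and matches spaced by 5 bases in 0.0974%. *Rarb*, the retinoic acid receptor gene known for the same kind of element, had one too, printed in its own direction from chr14:16575506-16575535 on the minus strand for comparison.
Rarb: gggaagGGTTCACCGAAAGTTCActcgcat

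Neither gene with this element was called. *Cyp26a1* had only 124 reads in all libraries, with 10.3, 14.1, 6.72, 9.58 and 25.7 normalized counts in control and 3.70, 15.2, 12.3, 13.3 and 11.3 in *Dis3* cKO. The group ranges overlapped, with control replicate 5 highest and *Dis3* cKO replicate 1 lowest. The fold was 0.851 with an interval of 0.438 to 1.65 (adjusted p = 0.807), which leaves a fall as well as a rise within the error. The log2 fold change was 0.04 in replicates 1 to 3 and -0.51 in replicates 4 and 5, and neither passed. *Rarb* had a mean of 20.0 normalized counts in control and 27.0 in *Dis3* cKO (log2 fold change 0.43 ± 0.34 SE, adjusted p = 0.496).

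Per exon length the 9 genes spanned a wide range of levels in control testes. The order was *Aldh1a1* at 125 CPM per kilobase, *Cyp26b1* at 27.6, *Aldh1a2* at 17.0, *Crabp1* at 12.1, *Dhrs3* at 8.50, *Rdh10* at 4.30, *Aldh1a3* at 1.45, *Lrat* at 0.251 and *Cyp26a1* at 0.216. Neighbours in this order did not overlap across the 5 control libraries, except *Aldh1a2* with *Crabp1* and *Lrat* with *Cyp26a1*. In *Dis3* cKO the order was the same but for *Crabp1*, whose mean of 6.25 lay under that of *Dhrs3* at 9.42, and these 2 ranges overlapped.

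**Figure D4:**
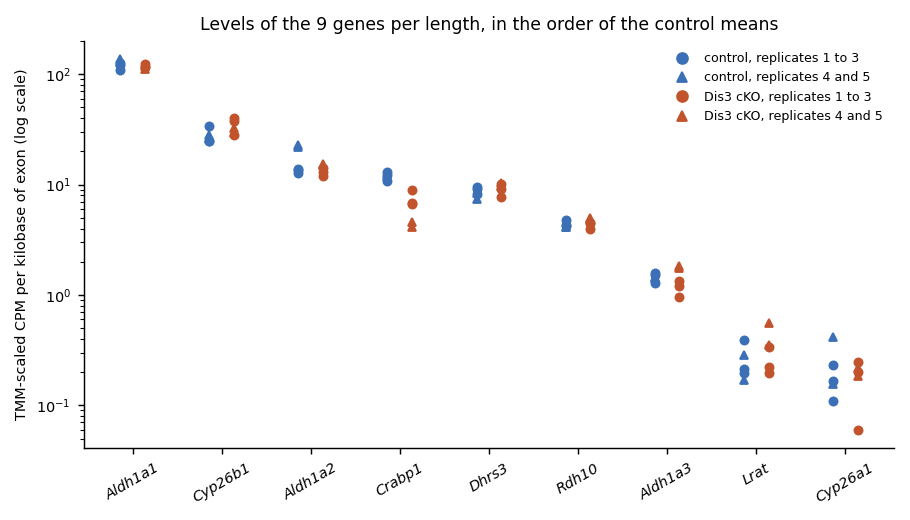
Level of each gene in each library as TMM-scaled CPM per kilobase of exon (y axis, log scale), with genes on the x axis in the order of the control mean. The *Crabp1* control points lie at 10.8 to 13.1 and its *Dis3* cKO points at 4.15 to 8.92, whereas the points of the other 8 genes overlap between the groups.

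The genes whose profiles over the 10 libraries were closest to the remaining members were *Lgr4* and *Tmem170b* for *Rdh10*, *Slc40a1* and *Zfp369* for *Dhrs3*, *Lims1* and *Smad2* for *Aldh1a1*, *Hprt1* and *Rps7* for *Aldh1a2*, and *Rgs7bp* and *Fam171b* for *Aldh1a3*. *Lrat* came closest to *Pcdhgb8* and *8030451A03Rik*, at differences of 0.217 and 0.222, and *Cyp26a1* to *Gpr137b-ps* and *Crlf2*, at 0.271 and 0.277. The likeness was loose for these 2 sparsely counted genes, whose own spreads were 0.445 and 0.419.

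Genes around the 9 were taken as 4 lists, of which 44 of 65 genes were tested, and 4 rose and 1 fell. Over all genes tested, 4.42% were called higher and 3.48% lower. None of the 7 tested of 12 uptake and carrier genes was called. The lowest adjusted p in this list belonged to *Rbp4*, the plasma carrier of retinol (log2 fold change -0.43 ± 0.17 SE, adjusted p = 0.128). None of the 18 tested of 31 other retinoid enzymes was called either in this fit, and the lowest adjusted p was that of *Rdh11*, a retinal reductase (-0.24 ± 0.08 SE, adjusted p = 0.0835). With the set of replicates as a term, which called 8.84% of all genes higher and 8.33% lower, *Adh1*, an alcohol dehydrogenase gene, was called higher and *Rdh11* lower (adjusted p = 0.00254 and 0.0407). *Adh1* had a log2 fold change of 0.32 ± 0.16 SE without the term (adjusted p = 0.250). At an unadjusted p under 0.05 each of these lists had 1 gene lower and none higher. Of all 20043 genes tested, 2361 were higher and 2432 lower at this threshold.

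Among 11 receptor and cofactor genes, all tested, 4 rose and none fell, against 4.42% higher and 3.48% lower over all genes tested. The median log2 fold change of the 11 was 0.28. All 4 genes called were cofactors. *Ncor1*, a corepressor of unliganded receptors, rose by 0.30 ± 0.07 on the log2 scale (SE, adjusted p = 0.0203). *Nrip1*, a corepressor of liganded receptors, rose by 0.28 ± 0.07 (adjusted p = 0.0278). The coactivators *Ncoa1* and *Ncoa2* rose by 0.31 ± 0.07 and 0.31 ± 0.06 (adjusted p = 0.0123 and 0.0103). The groups did not overlap for any of these 4 genes, a pattern that 4.59% of all genes tested showed in the higher direction. None of the 6 receptor genes was called by edgeR in the fit without a term for the sets of replicates. DESeq2, also without that term, called 5 genes of the whole list higher, the 4 cofactors and the receptor gene *Rxra* (adjusted p = 0.0462). With that term edgeR called 6 genes higher, the 4 cofactors and the receptor genes *Rara* and *Rxra* (adjusted p = 0.0105 and 0.0202). Without it *Rxra* had a log2 fold change of 0.21 ± 0.07 SE in edgeR (adjusted p = 0.0809). In replicates 1 to 3 alone the 4 cofactors had log2 fold changes of 0.21 to 0.33, and *Nrip1* and *Ncoa1* did not pass. In replicates 4 and 5 alone they had 0.26 to 0.48, and all 4 passed.

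These cofactor transcripts are long, with 8576 to 15642 bases of exon against a median of 3544 over all genes tested. Among the 2687 tested genes of at least 8000 bases, a limit chosen after the values were seen, 13.7% were called higher, and their median log2 fold change was 0.11. The part of length in the cofactor result was not tested. Leaving out 1 library gave between 2 and 5 calls in this list, with 2 without control replicate 1 or 2 or without *Dis3* cKO replicate 5. *Ncoa1* and *Ncoa2* kept theirs each time, *Ncor1* in 7 of 10 cases and *Nrip1* in 2.

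Of 11 retinoic acid response genes 8 were tested, and *Stra8* fell and none rose in the fit without a term for the sets. Over all genes tested, 4.42% were called higher and 3.48% lower. The other 7 tested genes were not called in that fit. Among them were *Kit* at -0.08 and *Rec8* at -0.37 on the log2 scale (adjusted p = 0.683 and 0.317, edgeR). With the term 1 gene was called higher, *Tgm2*, a transglutaminase gene (adjusted p = 0.00812, against a log2 fold change of 0.29 ± 0.11 SE and an adjusted p = 0.110 without it). *Stra8*, the germ cell gene that retinoic acid induces at the start of differentiation and meiosis, had 895, 870, 810, 1121 and 982 normalized counts in control and 660, 538, 442, 481 and 405 in *Dis3* cKO. The groups did not overlap, a pattern that 4.31% of all genes tested showed in the lower direction. Its log2 fold change was -0.89 ± 0.13 SE (adjusted p = 0.00192), and it passed whichever library was left out. The value was -0.65 in replicates 1 to 3 and -1.24 in replicates 4 and 5, and both passed. *Stra8* is expressed in germ cells, so the lower germ cell marker sum given above stands beside it as well as beside *Crabp1*.

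**Figure D5:**
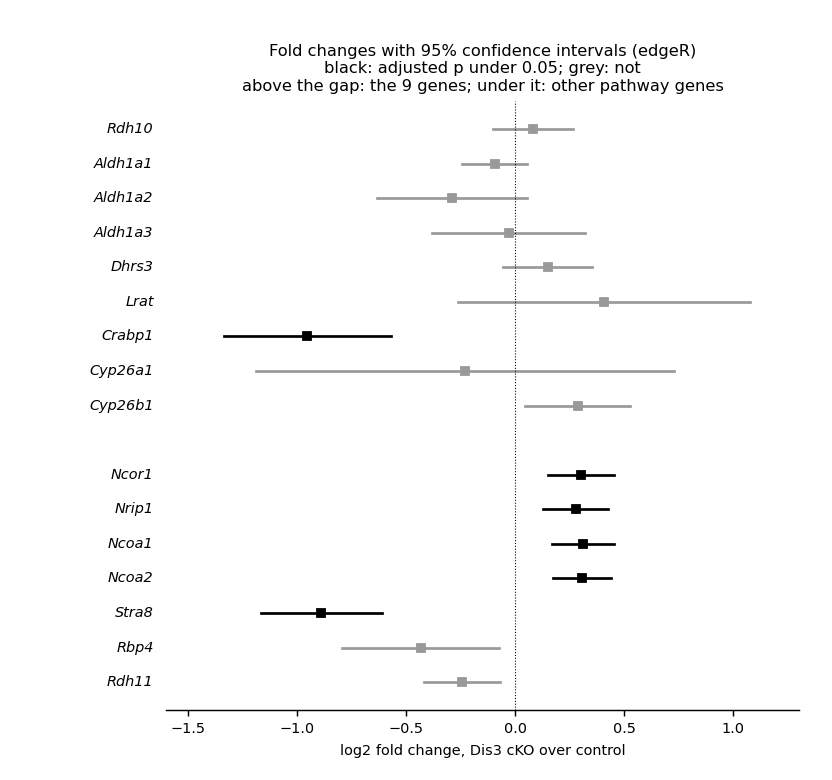
Log2 fold change of *Dis3* cKO over control (x axis) with 95% intervals (lines), for the 9 genes above the gap and for the other pathway genes named by rule below it, black where the adjusted p was under 0.05. *Crabp1* at -0.95 and *Stra8* at -0.89 are the lowest, and the intervals of *Lrat* and *Cyp26a1* are the widest of the 9.

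Antisense RNA from the 3000 bases before the start, a class of exosome target called PROMPT, was counted in a region for 6 of the 9 genes. None of the 6 was called, against 13.6% called higher and 0.0486% lower of the 12345 regions tested. Each region held only 33 to 67 reads over all 10 libraries. The region before *Cyp26b1* had 20 reads in control and 39 in *Dis3* cKO, and that before *Crabp1* had 31 and 36. The region before *Aldh1a2* had 13 and 27, of which *Dis3* cKO replicate 2 held 19. The median log2 fold change of the 6 was 0.60, against 0.64 over all regions tested, and a change of that size was not detectable in any 1 region at this depth.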

How the data were processed

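The sample labels gave the 5 control and 5 *Dis3* cKO libraries of total testis RNA. The authors used cutadapt for trimming, HISAT2 for alignment and featureCounts for counting. The deposited tables hold the authors' raw counts per gene and per antisense upstream region. Their headers name featureCounts 1.6.4 and GENCODE M18 (GRCm38), whereas the methods name a later release. Gene IDs took their symbols from GENCODE M39, which named 50129 of 54232 genes.

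Tests used R 4.3.3. Genes kept by filterByExpr (min.count of 10, min.total.count of 15) were scaled by TMM and tested with the quasi-likelihood test of edgeR 4.0.16, two-sided, with no other term and Benjamini-Hochberg adjustment over all genes tested. Upstream regions needed a mean of 3 counts per library. Alternatives were DESeq2 1.42.0, RLE scaling, no filter, leaving out each library, the replicate number as a block, and each set of replicates alone or as a term. Profiles used log2 CPM with a prior count of 2 for genes with a mean of at least 50. The procedure was tested on simulated data. Replicates of 1 group differed by at least 4.36 times the counting variance, so that no pair agreed within sampling noise.

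Genes named were the 9, *Dis3*, list genes past the threshold (or the one with the lowest adjusted p), and the 2 nearest profiles. *Crabp2*, *Rarb*, *Rara*, *Rxra*, *Adh1*, *Tgm2*, *Cyp26c1*, *Meis2*, *Kit*, *Rec8* and the Sertoli markers of the closing section were named after their values were seen. The 9 genes and all lists were chosen with earlier results of these data known. Some genes that these rules take are not reported here and are in none of the list counts.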

Additional observations from a re-analysis of the deposited data

Results flagged for a closer look

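The effect of *Dis3* loss differed between the sets of replicates in 3 named genes. The adjusted p of the interaction was 0.0169 for *Aldh1a2*, 0.0489 for *Crabp2* and 3.27e-06 for *Meis2*, a homeobox gene of the response list. *Meis2* had a log2 fold change of -0.17 in replicates 1 to 3 and of 1.11 in replicates 4 and 5. For *Crabp2*, at 203 reads in all libraries, the value was -0.83 in replicates 1 to 3 and 1.79 in replicates 4 and 5. In the 52 groups of 5 examined, from 26 genes, 1 library stood apart from the rest of its group. It was *Dis3* cKO replicate 3 for *Rxra*, at 3323 normalized counts against 2901 to 2953 in the other *Dis3* cKO libraries. Chance gives such a library in about 1 in 20 groups. The adjusted p of the interaction was under 0.05 for 4.58% of all genes tested. *Crabp2*, *Meis2* and *Rxra* were named after their values were seen. The counts of this section can therefore not be weighed against that share or against chance. What separates the sets is not given in the sources used here, and its part in these differences was not tested.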

How the results depend on the processing

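*Crabp1* kept its call and direction under every alternative run, and leaving out 1 library gave log2 fold changes of -1.11 to -0.84. *Dis3* kept its call too, at -1.67 to -1.58. Calls among the 9 ranged from 0 to 1 higher and stayed at 1 lower when 1 library was left out, and the groups of 1 to 2 genes did not overlap. Replicates 4 and 5 alone, with 2 libraries a group, called 2 higher (*Cyp26b1* and *Dhrs3*) and 3 lower (*Crabp1*, *Aldh1a1* and *Aldh1a2*), at a setting that called 11.7% of all genes higher and 11.7% lower, 2361 and 2360 genes. Of the other pathway genes, 2 to 5 were called higher with 1 library left out, 10 higher and 4 lower in replicates 4 and 5 alone, and 8 higher and 2 lower with the set as a term. No upstream region of the 9 was called under any alternative.

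Directions of genes that were not called also turned. In replicates 1 to 3 alone *Rdh10* was at -0.036, *Lrat* at -0.088, *Cyp26a1* at 0.042, *Meis2* at -0.17 and *Rarb* at -0.014. *Aldh1a3* ranged from -0.14 to 0.082 with 1 library left out and was 0.33 in replicates 4 and 5 alone. *Cyp26a1* ranged from -0.39 to 0.15, the latter without control replicate 5. *Crabp2* ranged from -0.30 to 0.35 with 1 library left out and was 1.79 in replicates 4 and 5 alone, 0.10 with the block and 0.091 with the set as a term. *Nrip1* lost its call without the filter on low counts (adjusted p = 0.0803), and *Nrip1* and *Ncoa1* lost theirs in replicates 1 to 3 alone. The cause was not tested.

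Control and *Dis3* cKO libraries share replicate numbers that the labels tie to nothing. Deviations of libraries with 1 number correlated at 0.083 to 0.183 across genes, over 0.1 in 3 of 5 pairs, and 6 of 10 libraries correlated best with their own number, so the numbers were not taken as pairs. With the replicate number as a block, 1 of the 9 was called higher (*Cyp26b1*, adjusted p = 0.0211) and 1 lower, and 8 other pathway genes higher and 2 lower, among them *Rara*, *Rxra*, *Adh1* and *Tgm2* higher and *Rdh11* lower (adjusted p = 0.00511, 0.0217, 0.00458, 0.0133 and 0.0308). Over all genes the block gave 1489 higher and 1337 lower, against 885 and 698 without it, and DESeq2 gave 1310 and 942. The set as a term gave 1772 and 1669, and leaving out 1 library gave 516 to 1173 higher and 366 to 806 lower. Depth limits *Lrat*, *Cyp26a1* and the upstream regions.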

Other observations

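*Rara* and *Cyp26b1* shared part of their order among libraries. Each was highest in *Dis3* cKO replicates 3 and 2, and each was highest among the controls in replicate 3. *Rara*, the main retinoic acid receptor gene of the testis, had 9622 and 9072 normalized counts in these *Dis3* cKO libraries and 7455 in control replicate 3, against 4723 to 6389 in the other controls. The pattern was counted in other genes with *Dis3* cKO replicates 2 and 3 as the 2 highest libraries, in either order. Control replicate 3 had to be the highest control. It was found in 4 of 10 Sertoli markers (*Amh*, *Sox9*, *Wt1* and *Inhbb*). It was found in 5 of 11 receptor and cofactor genes, with *Rara*, which defined the pattern, among them. It was also found in 2 of 7 uptake and carrier genes, 1 of 8 response genes and 1 of 5 rete and duct markers. No other retinoid enzyme gene showed it, and no germ cell, Leydig, myoid, stromal, endothelial, macrophage or mesothelial marker did. Of all genes tested, 4.47% showed this pattern. Its relation to the Sertoli marker level was not tested. The pooled log2 fold change of *Rara* was 0.35 ± 0.15 SE (adjusted p = 0.164, edgeR, n = 5 each), and with the set of replicates as a term it passed (adjusted p = 0.0105). In replicates 4 and 5 alone it was 0.37 (adjusted p = 0.00134), and in replicates 1 to 3 it was 0.35 (adjusted p = 0.0783).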
